A study of Mus musculus with 24 samples.

Results

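Autophagy encloses cytoplasm, organelles or portions of the endoplasmic reticulum (ER) in a double membrane, the autophagosome, and delivers them to lysosomes for degradation. ULK kinases start the process, a class III phosphatidylinositol 3-kinase complex marks the membrane, ATG9 vesicles and ATG2 lipid transfer proteins enlarge it, and a pair of ubiquitin-like conjugation systems attaches proteins of the ATG8 family (LC3 and GABARAP) to its lipids. Cargo receptors bridge ATG8 proteins to what is to be degraded, and ER-phagy receptors do this for the ER itself. Bone matrix is laid down by osteoblasts (OBs), whose main product is type I procollagen folded in the ER, and misfolded procollagen can reach lysosomes by autophagy of ER.

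The 39 genes described here encode this machinery, its receptors and its best known transcription factors, TFEB and TFE3, and were selected by gene symbol from the 55335 genes counted in each library. They comprised 5 genes of the initiation complex, 5 of the PI3-kinase complex, 5 lipid transfer and phosphoinositide effectors, 6 conjugation genes, 4 ATG4 proteases, 5 ATG8 genes, 3 cargo receptors, 4 ER-phagy receptors and 2 transcription factors. All 39 passed the filter on low counts in every comparison.

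Bulk RNASeq was performed on primary parietal bone OBs of wild type (WT) mice and of mice heterozygous (Het) for G610C, a Gly610 to Cys substitution in the proα2(I) chain that causes procollagen misfolding and models osteogenesis imperfecta. The allele was Col1a2tm1Mcbr, maintained on C57BL/6J. Cells were isolated from parietal bones of pups 4 to 5 days after birth and pooled over several pups of a genotype, then cultured in osteogenic medium with ascorbic acid 2-phosphate and collected at days 8, 14 and 21, with 4 libraries for each genotype and day, or 24 in all. The study's methods describe separate experiments on cells of different litters, which differed in plating density and in the oxygen level while the cells expanded, with culture wells as replicates. The labels do not say which libraries came from which experiment, so replicate number and these conditions cannot be told apart. With pooled pups, p-values measure the spread between these libraries, which may be technical.

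Library totals ranged from 17140202 to 59734231 assigned reads, and the 6 libraries numbered replicate 1 were the shallowest, at 17140202 to 25825762. Replicate 1 also stood apart by cell type markers. The summed level of the 4 chondrocyte markers was 22.9 in replicate 1 of Het day 14 against 1.38 to 2.53 in the other 3, and the 4 osteoblast markers were at 17.1 in replicate 1 of WT day 8. All 4 osteoblast markers, Col1a1, Runx2, Sp7 and Ibsp, were detected in every group. The counts hold no base substitution, so the genotype labels could not be checked from them. Levels are given as relative quantity (RQ), for which each count was set against the geometric mean of 4 housekeeping genes of its library (Actg1, Actb, Mrfap1 and Sdha). That mean was 544 to 629 CPM (library-scaled counts) at day 8 and 428 to 517 CPM later, so this scale placed later libraries higher than a scale on all genes did. Main counts of genes that passed with time are given on the housekeeping and TMM scales. Counts based on the order of libraries, and fold changes of single genes, are on the housekeeping scale unless another is named.

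TFEB and TFE3 bind the CLEAR element, whose core TCACGTGA contains the E-box CACGTG. Promoter sequence is shown for the genes that held this core, and for Optn, Gabarapl2 and Ccpg1 of those that differed by genotype. RefSeq promoters (GRCm38.p6) were available for 33 of the 39 genes, and the 250 bases before each start were searched on both strands. CACGTG was found in 4 of the 33 genes (Atg3, Atg5, Atg7 and Sec62), or 12.1%, against 6.86% of 27025 genes. TCACGTGA, every match of which is also a CACGTG match, was found in Atg3 and Sec62, or 6.06%, against 0.907%. TGATGNAA, the C/EBP-ATF element bound by ATF4 and CHOP, was found in 0 of the 33 and in 3.91% of all genes. A match is a run of letters and not evidence of binding. Ulk1 and Tfe3, which also differed by genotype below, held none of the searched motifs in their windows and are not printed. Only the stretch that no exon of an annotated protein-coding gene covers is printed, and capitals mark the searched motifs. Atg3 (chr16:45158707-45158784, + strand) and Sec62 (chr3:30792626-30792874, + strand) held the CLEAR core, while Optn (chr2:5064118-5064367, - strand), Gabarapl2 (chr8:111940453-111940702, + strand) and Ccpg1 (chr9:72985383-72985428, + strand), which differed by genotype below, held none of these letters in their windows.
Atg3: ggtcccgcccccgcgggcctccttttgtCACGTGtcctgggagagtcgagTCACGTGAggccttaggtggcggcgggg
Sec62: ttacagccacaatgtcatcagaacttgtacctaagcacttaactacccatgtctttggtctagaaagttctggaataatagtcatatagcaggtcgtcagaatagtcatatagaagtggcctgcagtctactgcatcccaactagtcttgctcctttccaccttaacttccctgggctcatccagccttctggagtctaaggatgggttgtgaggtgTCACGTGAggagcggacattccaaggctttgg
Optn: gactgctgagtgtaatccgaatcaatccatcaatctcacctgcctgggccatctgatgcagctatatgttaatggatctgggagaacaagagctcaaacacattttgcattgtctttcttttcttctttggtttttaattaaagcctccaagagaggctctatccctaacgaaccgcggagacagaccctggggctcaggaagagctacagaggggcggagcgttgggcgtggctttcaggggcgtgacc
Gabarapl2: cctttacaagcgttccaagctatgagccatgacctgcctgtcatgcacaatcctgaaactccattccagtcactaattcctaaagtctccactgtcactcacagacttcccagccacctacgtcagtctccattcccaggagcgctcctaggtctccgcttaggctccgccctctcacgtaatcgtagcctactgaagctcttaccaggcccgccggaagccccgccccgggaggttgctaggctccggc
Ccpg1: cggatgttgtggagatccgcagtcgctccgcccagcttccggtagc

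Levels were compared between genes per length, in TPM computed from the counts and the gene lengths in the files. In the 38 genes matched to the annotation, this length was the union of all exons and not that of a transcript. The order of the genes depends on these lengths. Gabarap, an ATG8 gene, was highest at 624.8 ± 51.1 TPM (mean ± SD, n = 24 libraries), followed by Sqstm1, encoding the ubiquitin-binding receptor p62, at 212 ± 35.7 TPM. Map1lc3a was at 127 ± 10.6 TPM and Sec62, an ER translocon protein that also serves as an ER-phagy receptor, at 104 ± 11.1 TPM. The range of Gabarap did not meet that of Sqstm1 (540 to 741 against 148 to 267 TPM), whereas Map1lc3a and Sec62 overlapped. At the low end were Atg14, the subunit that directs the PI3-kinase complex to autophagy, at 7.16 ± 0.761 TPM, and Tfeb at 4.30 ± 0.698 TPM. Of the 9 highest genes, all but Wipi1 encoded ATG8 proteins or receptors. The lowest count of any of the 39 genes in any library was 114, for Atg10.

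**Figure D1:**
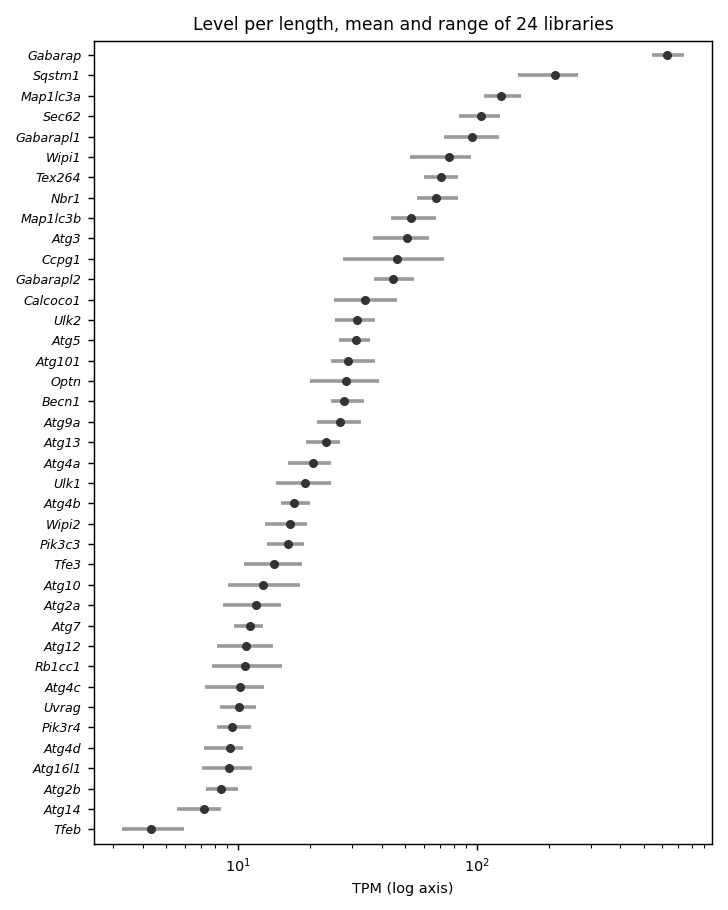
Level per length of the 39 autophagy genes in TPM on a log axis. Points are the mean of 24 libraries and bars the lowest and highest library. Gabarap (624.8 TPM) lies above every other gene and Tfeb (4.30 TPM) lies lowest.

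The comparison of Het with WT OBs at days 14 and 21, when collagen synthesis is high, asked whether transcripts of this machinery changed with the misfolding mutation. Most did not pass the test. Of the 39 genes, 5 did (edgeR quasi-likelihood test with day as covariate, Benjamini-Hochberg adjusted p under 0.05 over 19839 genes). Optn and Ccpg1 receptor transcripts, Ulk1 and Gabarapl2 were lower in Het OBs, and Tfe3 was higher. The share of all genes tested that passed was 16.1%, with 7.26% higher and 8.88% lower, so 5 of 39 was near the background. The median log2 change of the 39 genes was -0.03, against -0.05 for all genes, and their median absolute change was 0.0883 against 0.157. The 4 lower and 1 higher genes became 2 lower and 5 higher on edgeR's TMM scale, which moved the median of all genes from -0.05 to 0.00. The shares of all genes on that scale are not set beside these TMM counts, so they are not read against a background. Optn and Ccpg1 were lower and Tfe3 was higher on each of 4 library scales (housekeeping, TMM, DESeq2 size factors and total count), whereas Ulk1 and Gabarapl2 passed on the housekeeping scale alone.

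Optn (GRCm38 chromosome 2, 5020642 to 5064051, - strand) encodes optineurin, a ubiquitin-binding receptor used in mitophagy and in clearance of bacteria and protein aggregates. In WT OBs its RQ in replicates 1 to 4 was 0.0942, 0.0916, 0.0890 and 0.0923 at day 14 and 0.110, 0.0943, 0.103 and 0.105 at day 21. In Het OBs it was 0.0855, 0.0829, 0.0662 and 0.0594 at day 14 and 0.102, 0.0683, 0.0689 and 0.0607 at day 21. Het was the lower member in all 8 pairs of the same day and number. The genotypes did not overlap at day 14, and at day 21 they overlapped through replicate 1 of Het. The log2 fold change was -0.40 (SE 0.098, edgeR adjusted p = 0.0139), or a ratio of mean RQ of 0.762.

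Ccpg1 encodes an ER membrane receptor with a luminal domain that binds ER proteins and a cytosolic tail that binds ATG8 proteins and FIP200. Its RQ in WT was 0.277, 0.301, 0.294 and 0.288 at day 14 and 0.374, 0.386, 0.396 and 0.371 at day 21. In Het it was 0.258, 0.226, 0.236 and 0.214 at day 14 and 0.388, 0.280, 0.298 and 0.228 at day 21. Every Het library at day 14 lay below every WT library, and the Het day 21 library of replicate 1 was within the WT range. The log2 fold change was -0.34 (SE 0.080, edgeR adjusted p = 0.0115), a ratio of 0.792, with Het lower in 7 of 8 pairs. Ccpg1 (GRCm38 chromosome 9, 72985429 to 73016340, + strand) shares 42.9% of its exon bases with Gm44503 on the same strand, whose count was 93.9 to 97.0% of that of Ccpg1 in every library, and 28.9% with Pigb on the other strand. Pigb changed by -0.31 (edgeR adjusted p = 0.00512) and Gm44503 by -0.33, and the sources of these reads cannot be told apart without the strand and overlap settings of the counting.

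Ulk1 (chromosome 5, 110784488 to 110810097, - strand) encodes the kinase that starts autophagy when nutrient signalling falls. Its RQ was 0.0912, 0.108, 0.114 and 0.102 in WT day 14 and 0.0906, 0.102, 0.0818 and 0.0735 in Het day 14. At day 21 it was 0.109, 0.113, 0.114 and 0.101 in WT and 0.100, 0.102, 0.0997 and 0.0842 in Het. Het was lower in all 8 pairs, although the genotypes overlapped on both days. The log2 fold change was -0.22 (SE 0.068, edgeR adjusted p = 0.0379).

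Gabarapl2 (chromosome 8, 111940703 to 111953612, + strand), an ATG8 gene also known as GATE-16, had a smaller difference. Its RQ was 0.0818, 0.0766, 0.0785 and 0.0801 in WT day 14 and 0.0604, 0.0815, 0.0703 and 0.0722 in Het day 14. The day 21 values were 0.0946, 0.0901, 0.0864 and 0.0905 in WT and 0.0902, 0.0720, 0.0749 and 0.0768 in Het. On each day 1 Het library lay within the WT range. The log2 fold change was -0.18 (SE 0.057, edgeR adjusted p = 0.0430).

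Tfe3 (chromosome X, 7762560 to 7775202, + strand), the paralog of TFEB that activates lysosomal and autophagy genes when it enters the nucleus, was the gene that rose. Its RQ was 0.0958, 0.0816, 0.0708 and 0.0858 in WT day 14 and 0.0999, 0.0927, 0.0938 and 0.0915 in Het day 14. By day 21 the values were 0.0823, 0.0914, 0.0929 and 0.0895 in WT and 0.101, 0.112, 0.105 and 0.119 in Het. The genotypes overlapped at day 14 and did not at day 21. Het was higher in all 8 pairs, and the log2 fold change was 0.24 (SE 0.058, edgeR adjusted p = 0.0127). Tfeb changed by 0.15 and was also higher in Het in all 8 pairs, but did not pass (edgeR adjusted p = 0.142).

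Sqstm1, Map1lc3b and the other ER-phagy receptors are given for all libraries although none passed. Sqstm1 RQ was 0.561, 0.489, 0.487 and 0.493 in WT day 14 and 0.606, 0.569, 0.509 and 0.499 in Het day 14. At day 21 it was 0.607, 0.603, 0.609 and 0.585 in WT and 0.734, 0.597, 0.582 and 0.587 in Het. Het libraries of day 14 were above WT ones in every number, but those of day 21 were above in replicates 1 and 4 only, and the change of 0.08 did not pass (edgeR adjusted p = 0.382).

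Map1lc3b, encoding LC3B, the ATG8 protein most used to mark autophagosomes, was split by replicate number. Its RQ was 0.325, 0.271, 0.274 and 0.281 in WT day 14 and 0.325, 0.250, 0.249 and 0.245 in Het day 14. The day 21 values were 0.401, 0.349, 0.346 and 0.344 in WT and 0.417, 0.288, 0.288 and 0.263 in Het. Replicates 2 to 4 were lower in Het on both days, whereas replicate 1 was nearly equal at day 14 and higher in Het at day 21. The change over all replicates was -0.15 (edgeR adjusted p = 0.273).

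Sec62 RQ was 0.375, 0.354, 0.382 and 0.364 in WT day 14 and 0.282, 0.284, 0.399 and 0.331 in Het day 14. By day 21 the values were 0.400, 0.361, 0.355 and 0.360 in WT and 0.363, 0.307, 0.320 and 0.277 in Het. The Het libraries were mostly lower, with replicate 3 of day 14 above all 4 WT libraries, and the change of -0.20 did not pass (edgeR adjusted p = 0.0636).

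Calcoco1, a soluble receptor that binds ER through VAP proteins, had RQ of 0.135, 0.165, 0.164 and 0.150 in WT day 14 and 0.142, 0.144, 0.136 and 0.130 in Het day 14. At day 21 it was 0.184, 0.184, 0.193 and 0.175 in WT and 0.209, 0.165, 0.160 and 0.137 in Het. On both days Het was lower in replicates 2 to 4 and higher in replicate 1, and the change of -0.14 did not pass (edgeR adjusted p = 0.168).

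Tex264, an ER-phagy receptor with a long disordered cytosolic region, had RQ of 0.162, 0.144, 0.145 and 0.143 in WT day 14 and 0.166, 0.181, 0.150 and 0.144 in Het day 14. The day 21 values were 0.172, 0.155, 0.150 and 0.149 in WT and 0.195, 0.162, 0.154 and 0.145 in Het. The genotypes overlapped, and the change of 0.09 did not pass (edgeR adjusted p = 0.374).

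**Figure D2:**
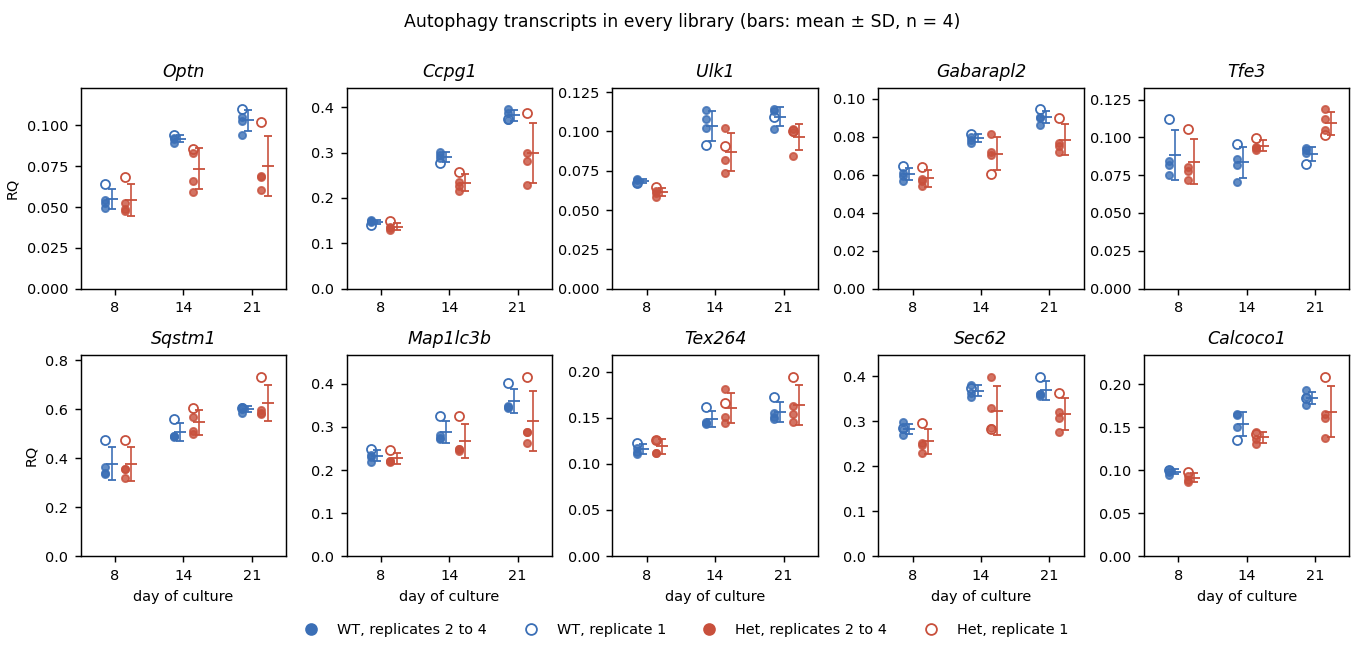
RQ of 10 autophagy genes in every library against day of culture (blue WT, red Het, open circles replicate 1, bars mean ± SD of 4 libraries). Optn and Ccpg1 are lower in Het at day 14 without overlap (0.0594 to 0.0855 against 0.0890 to 0.0942 for Optn), and replicate 1 of Het at day 21 lies apart from the other 3 for Optn, Ccpg1, Map1lc3b, Sqstm1 and Calcoco1.

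The remaining 29 genes did not pass in this comparison, and their changes lay between -0.19 (Nbr1, a ubiquitin-binding receptor) and 0.15 (Atg5, part of the conjugation machinery, and Atg4d, a protease of ATG8 proteins). In the initiation complex, Ulk2, Atg13 and Rb1cc1, which encodes the scaffold FIP200, changed by -0.07, -0.02 and -0.17, and Atg101, the partner of ATG13, by 0.14. In the PI3-kinase complex Becn1, Pik3c3, Pik3r4, Atg14 and Uvrag lay between -0.08 and 0.10. Among the lipid transfer proteins, the scramblase Atg9a and the phosphoinositide-binding Wipi1 and Wipi2, values ran from -0.13 for Atg2b to 0.02 for Wipi2. The conjugation enzymes Atg3, Atg7 and Atg10 and the conjugate partners Atg12 and Atg16l1 lay between -0.10 and 0.02. The proteases Atg4a, Atg4b and Atg4c lay between -0.07 and 0.01, and the ATG8 genes Map1lc3a, Gabarap and Gabarapl1 between -0.07 and -0.00. The sign was the same on all 4 library scales in 27 of the 39 genes and changed in 12 (Ulk2, Atg13, Pik3c3, Pik3r4, Atg2a, Wipi1, Atg12, Atg4a, Atg4c, Map1lc3a, Gabarap and Gabarapl1), none of which passed on any of the 4. No gene among the 39 had its 8 Het libraries all above or all below the 8 WT libraries, which held for 0.414% (above) and 0.54% (below) of the genes that averaged 10 counts or more.

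The count of genes that passed depended on the replicates. With the replicate number as a block, 8 passed, 1 higher and 7 lower, adding Map1lc3b (-0.17), Nbr1 (-0.20) and Sec62 (-0.21), against 9.34% of all genes higher and 14.2% lower. Without replicate 1, 15 passed. Tfe3, Atg5, Atg4d and Uvrag were higher, and Optn (-0.50), Ccpg1 (-0.45), Nbr1 (-0.28), Ulk1, Calcoco1, Map1lc3b, Atg2b, Gabarapl2, Atg2a, Atg9a and Pik3r4 were lower, against 17.2% of all genes higher and 22.2% lower. Atg4d shares 19.3% of its exon bases with Kri1 and Uvrag 17.6% with Gm45187, both on the other strand, and the reads of these overlapping genes cannot be told apart. Without replicate 2, 3 or 4, however, 0 passed by edgeR, and 5, 6 and 5 of the 39 had an unadjusted p under 0.05. The shares of all genes that passed were then 1.63%, 1.29% and 0.702%. Leaving out single libraries gave 11 without replicate 1 of Het day 21, 8 without replicate 1 of Het day 14, and 3 without replicate 2, 3 or 4 of WT day 14, 2 or 3 of WT day 21, 4 of Het day 14, or 3 or 4 of Het day 21. The shares of all genes are not set beside these counts for single libraries. Within replicate 1 the Het against WT difference of Ccpg1 was -0.03 and of Optn -0.13, and within replicates 2 to 4 it was -0.46 and -0.51. For Tfe3 these values were 0.18 and 0.26, and for Sqstm1 0.19 and 0.04.

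**Figure D3:**
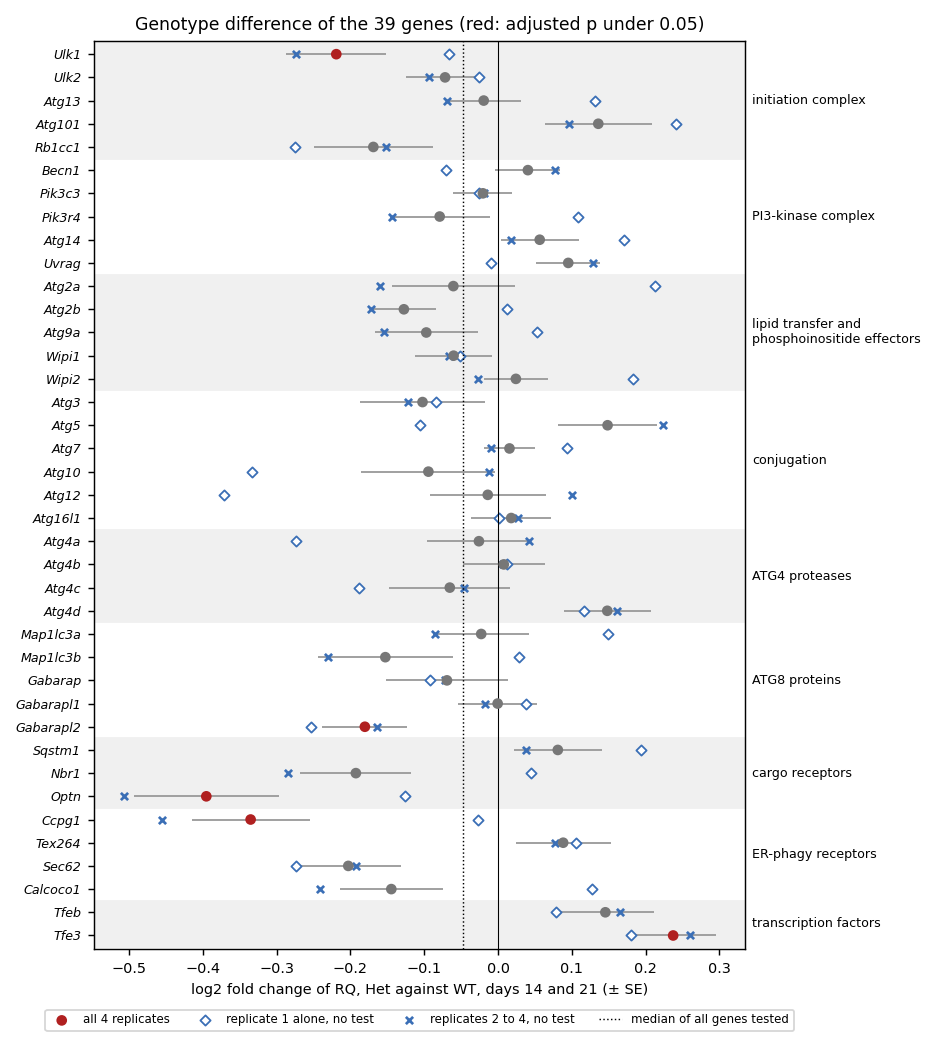
Log2 fold change of RQ, Het against WT at days 14 and 21, for the 39 genes by role. Circles with bars are the fit over all 4 replicates ± SE, red where the adjusted p was under 0.05, open diamonds the mean difference in replicate 1, crosses that in replicates 2 to 4, and the dotted line the median of all genes (-0.05). Optn and Ccpg1 lie farthest to the left, and their replicate 1 values lie nearer to 0 (-0.13 and -0.03).

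Single days gave no call. In the fit of all 6 groups, 0 of the 39 genes passed at day 14, where 3.45% of all genes did, and 0 at day 21, where 0.91% did. At day 8, before the rise in collagen synthesis, 0 of the 39 passed and 0.631% of all genes did, with 1 gene at an unadjusted p under 0.05 by edgeR's quasi-likelihood test and 2 by DESeq2. Optn differed by -0.02 and Ccpg1 by -0.11 at day 8. In WT day 8, Optn RQ was 0.0639, 0.0546, 0.0492 and 0.0527, and in Het day 8 it was 0.0684, 0.0488, 0.0476 and 0.0523. For Ccpg1 the values were 0.141, 0.149, 0.152 and 0.146 in WT and 0.148, 0.136, 0.129 and 0.133 in Het. The genotypes overlapped in both genes.

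Whether the Het effect itself differed between day 8 and the later days was tested as an interaction. It passed for 0 of the 39 genes and 0.171% of all genes. Tfe3 (0.31, unadjusted p = 0.0430, adjusted p = 0.858) and Optn (-0.37, unadjusted p = 0.0450, adjusted p = 0.870) were the 2 genes with an unadjusted p under 0.05 by edgeR, and DESeq2 also gave 0 calls and 2 genes under 0.05. Without replicate 1, both passed, Optn at -0.43 and Tfe3 at 0.32, and 4.72% of all genes did. A lower Optn at days 14 and 21 and not at day 8 was therefore a call that rested on leaving replicate 1 out.

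Cell type markers moved in the same comparisons. All 8 macrophage markers were higher in Het at days 14 and 21, with a median log2 change of 1.00, and 0 of the 8 were at 0 counts in any group. Their summed RQ was 1.28 to 4.17 in WT and 2.85 to 6.79 in Het at day 14, and 5.56 to 6.61 and 7.36 to 16.9 at day 21. Replicate 1 went the other way at day 14, with 4.17 in WT and 2.85 in Het. On single days, 4 of the 8 passed at day 14 and 0 at day 21, against 3.45% and 0.91% of all genes. Col1a1, Runx2 and Sp7 were lower in Het (on the other 3 library scales, Runx2 and Sp7 only), and the median of the 4 osteoblast markers was -0.39. The summed osteoblast RQ was 98.9 to 179 in WT and 93.5 to 125 in Het at day 14, and 165 to 183 and 112 to 147 at day 21. The 4 chondrocyte markers had a median of -0.85 and none passed. Their part in the differences of Optn, Ccpg1, Ulk1, Gabarapl2 and Tfe3 was not tested. In bulk RNA, fewer cells of a type and less RNA per cell cannot be told apart. Of the other lists, Atp6v0d2 was higher and Mmp9 lower among 6 osteoclast markers tested, Kdr was higher among 3 endothelial markers, all of which were under 1 TPM, and the 2 adipocyte markers and 1 muscle marker tested did not pass.

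**Figure D4:**
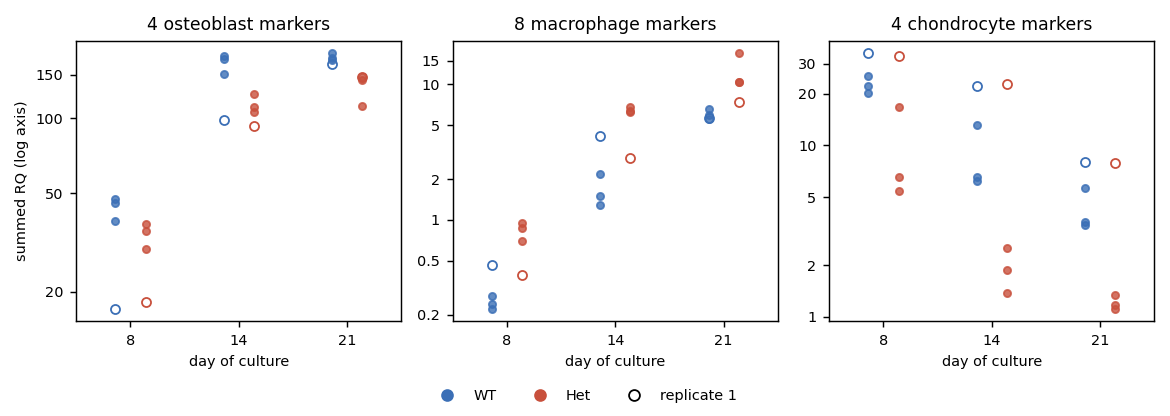
Summed RQ of osteoblast, macrophage and chondrocyte markers in every library by day (log axes, blue WT, red Het, open circles replicate 1). Macrophage markers are higher in Het replicates 2 to 4 than in WT at each day, and within Het, chondrocyte markers are highest in replicate 1 at every day (22.9 against 1.38 to 2.53 at day 14).

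Of 50 other genes of the pathway, listed beside the 39, 4 were higher and 4 lower in Het at days 14 and 21, against 16.1% of all genes that passed. On the TMM scale, in fits added after seeing the data, 6 were higher and 3 lower, with no share of all genes on that scale set beside them. Of 9 other autophagosome formation genes, Tmem41b, an ER scramblase (-0.23), and Atg16l2 (-0.21) were lower and 7 did not pass. None of 5 other ER-phagy receptors or 9 other cargo receptors passed. Of 13 genes for fusion of autophagosomes with lysosomes, Vps33a (0.21) and Plekhm1 (0.22) were higher. Of 14 nutrient and stress regulators, Sesn2, a stress-induced inhibitor of mTORC1 (0.32), and Mitf, a relative of TFEB (0.38), were higher, and Foxo1 (-0.66) and Fnip1 (-0.31) were lower, Fnip1 on the housekeeping scale alone. The change of Foxo1, a transcription factor of the forkhead family, was greater in size than that of any of the 39 genes. Of the 12 genes among the 39 that are known as targets of ATF4 or CHOP, Gabarapl2 alone passed, in the lower direction and on the housekeeping scale only. On the other 3 scales 1 to 4 of the 12 were higher and 0 lower, and the shares of all genes on those scales are not set beside these counts. All of these calls were by edgeR's quasi-likelihood test, adjusted over 19839 genes on the housekeeping scale.

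Culture time was accompanied by larger changes than genotype. At days 14 and 21 against day 8, averaged over genotypes, 27 of the 39 genes rose, 0 fell and 12 did not pass (edgeR's quasi-likelihood test over 20434 genes). Of all genes 58.3% passed, with 40.9% higher and 17.4% lower. The median of the 39 genes was 0.35 and that of all genes 0.16. On the TMM scale, where the median of all genes was -0.02, 22 genes rose and 7 fell (Becn1, Atg2a, Atg9a, Wipi2, Atg12, Atg16l1 and Atg4b), against 27.4% of all genes higher and 32.8% lower, and by total count 16 rose and 14 fell, against 21.4% and 43.4%. The 16 genes that rose on all 4 library scales were Ulk1, Ulk2, Pik3c3, Wipi1, Atg3, Atg7, Atg10, Atg4a, Atg4c, Gabarapl1, Gabarapl2, Sqstm1, Optn, Ccpg1, Tex264 and Calcoco1. The share of all genes that rose on all 4 scales is not set beside this count, which is not read against a background. Added after seeing the data, fits within each genotype on the housekeeping scale gave 27 genes higher in WT and 25 in Het, with 0 lower in both. The shares of all genes in these fits are not set beside these counts.

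By role, on the housekeeping scale, all 5 ATG8 genes, all 3 cargo receptors and all 4 ER-phagy receptors rose, as did 4 of 6 conjugation genes, 3 of 5 in the initiation complex and in the PI3-kinase complex, 2 of 4 ATG4 proteases, 2 of 5 lipid transfer and phosphoinositide genes and 1 of 2 transcription factors. By total count, Map1lc3a and Uvrag among them fell, and Nbr1, Atg5 and Atg2b had negative changes that did not pass. On all 4 scales the counts by role that rose were 2 of 5, 2 of 3, 3 of 4, 3 of 6, 2 of 5, 1 of 5, 2 of 4, 1 of 5 and 0 of 2, in the same order. These counts too have no share of all genes beside them. The genes that did not pass on the housekeeping scale were Atg101, Rb1cc1, Becn1, Pik3r4, Atg2a, Atg9a, Wipi2, Atg12, Atg16l1, Atg4b, Atg4d and Tfe3.

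Ccpg1 rose most. Its RQ at day 8 had a lowest, median and highest value of 0.129, 0.144 and 0.152 over 8 libraries, and at days 14 and 21 of 0.214, 0.291 and 0.396 over 16. The ranges did not overlap, and the log2 fold change was 1.06 (SE 0.066, edgeR adjusted p = 1.31e-11). The overlapping Gm44503 rose by 1.06 and Pigb by 0.76, which cannot be told apart from Ccpg1 in the counts.

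Calcoco1 had 0.0864, 0.0960 and 0.100 at day 8 and 0.130, 0.162 and 0.209 later, a log2 change of 0.76 (SE 0.057, edgeR adjusted p = 2.32e-10). Wipi1, which binds phosphoinositides on the forming membrane, had 0.145, 0.172 and 0.193 at day 8 and 0.220, 0.274 and 0.309 later, a change of 0.69 (SE 0.050, edgeR adjusted p = 1.52e-10). In both, every later library lay above every day 8 library. Atg3, the E2-like enzyme that transfers ATG8 proteins to lipid and whose promoter above holds the CLEAR core, had 0.0696, 0.0831 and 0.102 at day 8 and 0.108, 0.130 and 0.162 later, a change of 0.65 (SE 0.079, edgeR adjusted p = 3.91e-07). Optn had 0.0476, 0.0525 and 0.0684 at day 8 and 0.0594, 0.0903 and 0.110 later, a change of 0.64 (SE 0.090, edgeR adjusted p = 2.77e-06). Atg3 did not overlap between the stages, whereas Optn overlapped through its Het libraries.

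Sqstm1 rose by 0.59 (SE 0.075, edgeR adjusted p = 6.28e-07), from a median RQ of 0.355 at day 8 to 0.583 later. Map1lc3b rose by 0.41 (SE 0.073, edgeR adjusted p = 5.80e-05), from 0.227 to 0.288. Ulk1 rose by 0.61, Tex264 by 0.42 and Sec62 by 0.35. In 10 genes (Ulk1, Pik3c3, Wipi1, Atg3, Atg7, Gabarapl1, Sqstm1, Ccpg1, Tex264 and Calcoco1) the 16 later libraries all lay above the 8 day 8 libraries, which held for 12.1% of genes. In 19 of the 39, both later days lay above day 8 in each of the 8 series of 1 genotype and replicate number, against 22.0% of all genes. The counts of 10 and 19 genes were made on the housekeeping scale only, which placed later libraries higher.

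**Figure D5:**
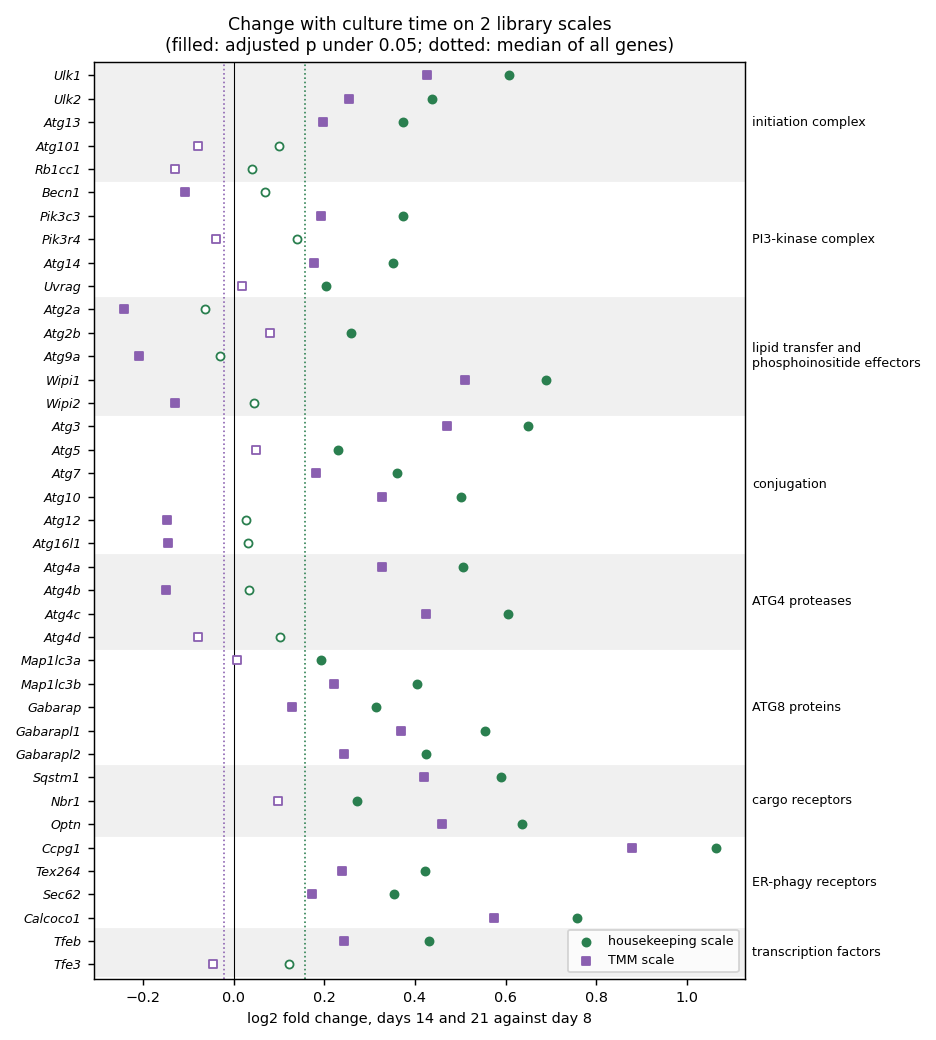
Log2 fold change, days 14 and 21 against day 8, of the 39 genes by role on the housekeeping scale (circles) and the TMM scale (squares). Filled symbols passed at an adjusted p under 0.05 and dotted lines are the medians of all genes (0.16 and -0.02). Ccpg1 lies farthest to the right on both scales, and genes such as Atg4b change side with the scale.

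The maturation of the cultures also changed their markers. All 4 osteoblast markers rose (median log2 change 1.71), all 8 macrophage markers rose (3.84, with a summed RQ of 0.222 to 0.465 in WT day 8 and 0.389 to 0.952 in Het day 8), 5 of 6 osteoclast markers tested rose and all 4 chondrocyte markers fell (-1.54). The share of these shifts in the rise of the autophagy genes was not tested. Among the 50 other pathway genes, 33 rose and 3 fell on the housekeeping scale, against 40.9% and 17.4% of all genes. On scales added for them after seeing the data, 20 rose and 11 fell by TMM (27.4% and 32.8% of all genes) and 18 rose and 22 fell by total count. On the housekeeping scale 8 of 9 cargo receptors rose, with the mitophagy receptors Bnip3 (2.13) and Bnip3l (1.05) highest, as did 10 of 13 fusion genes, 2 of 5 ER-phagy receptors (Retreg2 at 0.38 and Retreg3 at 0.15, the latter lower by total count), 6 of 9 formation genes and 7 of 14 regulators. Tmem41b (-0.17), Mlst8 (-0.15) and Prkaa1 (-0.26), a subunit of AMPK, fell, and all 3 fell on each of the 4 scales, while Bnip3, Bnip3l and Retreg2 rose on each. By TMM the counts that rose were 5 of 9 cargo receptors, 3 of 13 fusion genes, 1 of 5 ER-phagy receptors, 5 of 9 formation genes and 6 of 14 regulators. Of the 12 targets of ATF4 or CHOP among the 39, 9 rose and 0 fell on the housekeeping scale, 7 rose and 3 fell (Atg16l1, Atg12 and Becn1) by TMM, and 5 rose and 3 fell by total count.

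From day 14 to day 21, 9 of the 39 genes rose and 0 fell (edgeR's quasi-likelihood test over 19839 genes, genotype as covariate), against 13.3% of all genes higher and 5.94% lower. They were Atg10 (0.40), Ccpg1 (0.38), Gabarapl1 (0.33), Tfeb (0.30), Map1lc3b (0.28), Calcoco1 (0.27), Ulk2 (0.27), Sqstm1 (0.22) and Pik3c3 (0.20), and the median of the 39 was 0.11 against 0.06. On the TMM scale 9 rose and 1 fell (Atg2b, -0.15, edgeR adjusted p = 0.0485), against 11.4% of all genes higher and 10.9% lower. The sign was the same on all 4 scales in 31 of the 39, and the 8 genes that changed sign (Atg13, Becn1, Pik3r4, Atg2a, Wipi2, Atg3, Atg7 and Nbr1) passed on none. The same 9 were above day 14 in all 8 series of 1 genotype and replicate number, which held for 12.2% of all genes.

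Atg10, the E2-like enzyme that joins ATG12 to ATG5, had RQ of 0.0183, 0.0136, 0.0151 and 0.0149 in WT day 14 and 0.0254, 0.0174, 0.0191 and 0.0189 in WT day 21. In Het it was 0.0129, 0.0143, 0.0152 and 0.0146 at day 14 and 0.0227, 0.0162, 0.0187 and 0.0188 at day 21. Each number rose in each genotype (SE 0.091, edgeR adjusted p = 0.00552).

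Gabarapl1, an ATG8 gene, had RQ of 0.148, 0.131, 0.131 and 0.132 in WT day 14 and 0.179, 0.171, 0.173 and 0.164 in WT day 21. In Het it was 0.136, 0.133, 0.142 and 0.134 at day 14 and 0.204, 0.162, 0.161 and 0.154 at day 21. Every day 21 library lay above every day 14 library (SE 0.054, edgeR adjusted p = 0.000609). It shares 28.3% of its exon bases with 1700101I11Rik on the other strand, which rose by 0.33 as well, and their reads cannot be told apart.

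Tfeb had RQ of 0.0178, 0.0173, 0.0149 and 0.0145 in WT day 14 and 0.0205, 0.0192, 0.0195 and 0.0195 in WT day 21. In Het it was 0.0196, 0.0196, 0.0158 and 0.0162 at day 14 and 0.0208, 0.0223, 0.0232 and 0.0211 at day 21. Each series rose, and Het day 14 overlapped WT day 21 (SE 0.066, edgeR adjusted p = 0.00482). Ulk2, Pik3c3 and Gabarapl1 were the 3 genes whose 8 day 21 libraries all lay above the 8 day 14 libraries, against 1.89% of genes.

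The count of genes that passed in the late rise depended on the libraries used. It was 4 genes without replicate 3 and 5 without replicate 4. In fits added after seeing the data, 9 genes passed in WT libraries alone and 0 in Het libraries alone, where 8 had an unadjusted p under 0.05 by edgeR's quasi-likelihood test. The shares of all genes under these omissions and fits are not set beside the counts, which are not read against a background. The difference between the genotypes in this rise was not tested. All 8 macrophage markers rose over the same days (median 1.18), and their part was not tested.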

How the data were processed

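Bulk polyA RNASeq of cultured OBs gave 24 libraries (2 genotypes, 3 days, 4 libraries each). The authors deposited raw counts per gene with gene lengths. The submitters' processing notes name cutadapt 2.5, STAR 2.73a, featureCounts 1.6.4 and build mm10. Strand and overlap settings are not given in the sources used here. Of the 39 genes, 38 matched GENCODE M21 (GRCm38) by ID and version with equal exon length, and 26 of these share no exon base with another gene. Beside the overlaps named above, Becn1 shares 43.9% of its exon bases with Cntd1, Sqstm1 17.3% with Mrnip and Sec62 11.7% with 4933429H19Rik. These partners lie on the other strand, and the same limit applies. Over the libraries, the count of Cntd1 was 32.7 to 43.0% of that of Becn1. That of Mrnip was only 1.36 to 2.69% of that of Sqstm1, and that of 4933429H19Rik 6.39 to 10.2% of that of Sec62. Genotypes and days were taken from the labels. The 36 pairs of libraries within groups all differed by more than sampling noise (lowest chi-square per degree of freedom 4.78).

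Counts were tested with edgeR 4.0.16 (R 4.3.3) after filterByExpr, scaled by the geometric mean of Actg1, Actb, Mrfap1 and Sdha, with glmQLFTest and Benjamini-Hochberg adjustment over all genes tested, at a threshold of 0.05. The study's test on single genes was replaced by this count model. The genotype comparison used the 16 libraries of days 14 and 21 with day as covariate, the day 21 comparison the same libraries with genotype as covariate, and day 8, the interaction and maturation a fit of 6 groups. TPM was computed from counts and lengths. Alternatives were TMM, DESeq2 (1.42.0) size factors and Wald test, total counts, housekeeping sets of 3 genes, count filters, a ratio above 1.2 or below 0.8, a replicate block and omission of libraries. The script was tested on simulated data.

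Replicate numbers come from the labels. Same-numbered WT and Het libraries of a day deviated together in all 12 pairs (r of deviations 0.223 to 0.769, median 0.386, against -0.07 for different numbers), which met the criterion for paired numbers. The test was kept without the block, as in the study's methods, and the value with the block is given beside the result it changes. With pairs involving replicate 1 left out, the medians were 0.359 for the same number and 0.304 for different numbers. The deviations were still taken from group means that included replicate 1, which moves the other libraries of a group together. These medians therefore cannot show whether the remaining numbers were paired.

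The genes, lists and alternatives were chosen with earlier results of these data known. All 39 genes are named. Values per library are given for genes that passed between genotypes at days 14 and 21, for Sqstm1, Map1lc3b and the ER-phagy receptors, and for the largest changes with time.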

Additional observations from a re-analysis of the deposited data

Results flagged for a closer look

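In 13 of 90 groups of 4 libraries, over 15 genes, 1 library lay far from the other 3 by Dixon's ratio. In 12 of the 13 this library was replicate 1, and in all 12 it was the highest. Chance flags about 1 in 20 independent groups. Groups of different genes share the same libraries here, so 13 of 90 is not read against that rate. Map1lc3b was flagged in replicate 1 of WT day 21 (RQ 0.401, others 0.344 to 0.349), Het day 8 (0.247, others 0.219 to 0.222), Het day 14 (0.325, others 0.245 to 0.250) and Het day 21 (0.417, others 0.263 to 0.288). Sqstm1 was flagged in replicate 1 of WT day 14 (0.561, others 0.487 to 0.493) and Het day 21 (0.734, others 0.582 to 0.597). Atg3 was flagged in replicate 1 of Het day 8 (0.102, others 0.0696 to 0.0751) and Het day 21 (0.162, others 0.109 to 0.117). Gabarapl1 was flagged in replicate 1 of WT day 14 (0.148, others 0.131 to 0.132) and Het day 21 (0.204, others 0.154 to 0.162). Tex264 was flagged in replicate 1 of WT day 14 (0.162, others 0.143 to 0.145) and Sec62 in replicate 1 of WT day 21 (0.400, others 0.355 to 0.361). The remaining flag was Ulk1 in replicate 4 of Het day 21 (0.0842, others 0.0997 to 0.102). Replicate 1 was also the shallowest library of each group and the highest in chondrocyte markers. Its housekeeping mean, by which every RQ of a library is divided, was 428 CPM at Het day 21 (others 483 to 501). At Het day 8 it was 544 CPM (others 609 to 629), and at Het day 14 it was 515 CPM (others 477 to 517). The part of depth, markers and this divisor in the flagged values was not tested.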

How the results depend on the processing

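For Het against WT at days 14 and 21, 5 of 39 genes passed, and 11 of 36 alternatives gave a count within 1.5 times of this. The count was 2 with a ratio above 1.2 or below 0.8, 9 with DESeq2 size factors (7 higher, 2 lower), 13 by total count (11 higher, 2 lower), 3 without Actg1, 3 without Actb, 3 with no filter on low counts, 8 with the replicate block, 9 with replicate 1 as a covariate, 2 with no day covariate, and 0 with day 14 or day 21 alone. Omitting a replicate number gave 0 to 15 and omitting a library 3 to 11. Where no share of all genes is given above for a setting, its count was not set against a background. Of the 36 alternatives, Optn passed in 31, Tfe3 and Ccpg1 in 30 each, Ulk1 in 14 and Gabarapl2 in 9, with edgeR or DESeq2 adjusted p from 0.000160 to 0.197, 0.000912 to 0.333, 7.92e-05 to 0.188, 0.0120 to 0.265 and 0.0114 to 0.379. At day 8 the count was 0 in 40 of 42 alternatives, 0 to 3 without a replicate number (3 without replicate 1) and 0 to 1 without a library (Atg2b, without replicate 1 of Het day 8). For the interaction it was 0 in 40 of 41 and 0 to 2 without a replicate number (2 without replicate 1). Maturation gave 23 to 35 genes in 43 alternatives, all within 1.5 times of 27. Day 21 against day 14 gave 9 genes, 14 with DESeq2's Wald test, 4 to 11 without a replicate number and 0 in Het libraries alone. The replicate block changed no other call count by more than 1.5 times. The cause of these shifts was not tested.

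At days 14 and 21 against day 8, the sign depended on the scale for 15 genes, all above 0 on the housekeeping scale. The values below 0 that passed there or on the other scale follow. On the TMM scale Becn1 was at -0.11, Wipi2 at -0.13, and Atg12, Atg16l1 and Atg4b at -0.15. With DESeq2 size factors Becn1 was at -0.071, Wipi2 at -0.094, and Atg16l1 and Atg4b at -0.11. By total count Atg101 was at -0.20, Rb1cc1 at -0.26, Becn1 at -0.23, Pik3r4 at -0.16, Uvrag at -0.10, Atg2b at -0.041, Wipi2 at -0.25, Atg5 at -0.072, Atg12, Atg16l1 and Atg4b at -0.27, Atg4d at -0.20, Map1lc3a at -0.11, Nbr1 at -0.026 and Tfe3 at -0.17. Of 7878 values of single genes under an alternative, 7478 kept their side of the threshold and, where they passed, their direction (signs of values that did not pass were not counted), 128 newly passed, 127 no longer passed, 121 untested values moved by more than the replicate SD and 24 changed direction where a value passed. The lowest count of any of these genes in a library was 114, and what the lower depth of replicate 1 did to these values was not tested.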
